A study of Mus musculus with 4 samples.

Results

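The 9 genes described here encode the heavy and light chains of the myosin motor of heart muscle and 2 proteins that act on it. They were picked by gene symbol (Myh6, Myh7, Myh7b, Myl2, Myl3, Myl4, Myl7, Mylk3 and Mybpc3), and all 9 were found among the 22322 genes of the count files. RNA sequencing had been carried out on cardiomyocytes isolated from mouse hearts, with duplicate libraries (n = 2 per group) after a sham operation or after transverse aortic constriction (TAC), a narrowing of the aorta that loads the left ventricle with pressure. Male mice were operated at 2 months of age, and each library came from 1 heart taken apart with enzymes by Langendorff perfusion. Sampling was 14 weeks after surgery, although the methods also speak of 14-week-old mice, and no strain is named in the sources used here. The mice were anaesthetized with ketamine and xylazine for the TAC operation, and the sham procedure is not described in the sources used here. No transgene or other drug treatment is named for either group of these libraries. The comparison asks which myosin genes were higher or lower in cardiomyocytes of pressure-loaded, failing hearts, and how the shares of the paired chains differed.

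Each cardiac myosin molecule is built from a pair of heavy chains, which hold the ATP-splitting motor, and from essential and regulatory light chains that wrap around the neck of each motor. Myh6 encodes the fast alpha heavy chain, which prevails in the adult mouse ventricle, and Myh7 the slower beta heavy chain, which prevails in the fetal mouse ventricle and is a long-used marker of the hypertrophied rodent heart. Myl3 and Myl2 encode the essential and regulatory light chains of the ventricle, and Myl4 and Myl7 those of the atrium. Mylk3 encodes the cardiac myosin light chain kinase, which phosphorylates the regulatory light chain, and Mybpc3 encodes cardiac myosin-binding protein C, which sits on the thick filament and restrains the heads. Myh7b is an ancient relative of the heavy chains that carries a microRNA in one of its introns.

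Myh6 and Myh7 lie next to each other on the minus strand of chromosome 14 (mm10), at chr14:54941921-54966927 and chr14:54970684-54994626, with 3756 bases between them. Their coding sequences are so alike that short fragments cannot always be assigned to one of them. Of all windows of 50 bases in the Myh7 transcript 22.6% occurred unchanged in the Myh6 transcript, and 5.51% of windows of 150 bases did. The longest identical run had 245 bases and is shown because a fragment that lies wholly within it cannot be told apart between the genes by its sequence. It lies in coding sequence, in exons 32 and 33 of Myh7 (chr14:54974947-54975347, introns included, minus strand) and in exons 30 and 31 of Myh6 (chr14:54948327-54948725, minus strand).
Myh7 and Myh6, identical run: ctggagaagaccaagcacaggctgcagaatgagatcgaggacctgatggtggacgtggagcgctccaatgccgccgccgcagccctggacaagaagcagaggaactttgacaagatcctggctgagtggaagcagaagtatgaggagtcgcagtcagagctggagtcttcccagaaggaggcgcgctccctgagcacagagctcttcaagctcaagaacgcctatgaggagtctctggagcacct
In the files, Myh6 and Myh7 were the only 2 of the 9 genes whose deposited counts were not whole numbers (within 0.005) in any library, and in all 4 libraries the sum of the 2 was whole. No window of 50 bases was shared between Myh7b and Myh7, Myl4 and Myl3, or Myl7 and Myl2. The longest runs common to Myl4 and Myl3 and to Myl7 and Myl2 had 29 and 16 bases.

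Each heavy chain gene also hosts a microRNA in an intron, miR-208a in intron 29 of Myh6, miR-208b in intron 31 of Myh7 and miR-499 in intron 19 of Myh7b. Their mature sequences from RefSeq (GRCm38.p6) are shown with the seed, bases 2 to 8, in capitals, since the seeds of the first pair are the same letters.
miR-208a-3p: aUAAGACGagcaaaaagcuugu
miR-208b-3p: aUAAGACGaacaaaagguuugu
miR-499-5p: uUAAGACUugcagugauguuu
The miR-499-5p seed UAAGACU differs from UAAGACG in its last base. These RNAs were not analysed here, and the values below are those of their host genes.

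The promoter windows of Myh6 and Myh7, each 300 bases long from RefSeq (GRCm38.p6), are shown because Myh7 passed the test and its neighbour Myh6 did not. Both windows are read 5′ to 3′ on the minus strand. Capitals mark matches, on either strand, to any of the motifs searched, which were CATTCC (the MCAT element, known as a binding site of TEAD factors), GATAA (GATA factors), TATAAA (the TATA box), AGGTCA (a half-site of thyroid hormone and retinoid receptors), MEF2 and CArG (the site of serum response factor).
Myh6, chr14:54966558-54966857: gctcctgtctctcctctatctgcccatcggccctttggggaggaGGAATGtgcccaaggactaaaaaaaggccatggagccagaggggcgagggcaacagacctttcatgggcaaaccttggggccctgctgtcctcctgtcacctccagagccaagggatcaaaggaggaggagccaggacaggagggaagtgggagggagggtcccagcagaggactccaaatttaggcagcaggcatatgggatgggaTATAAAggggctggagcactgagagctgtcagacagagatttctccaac
Myh7, chr14:54994577-54994876: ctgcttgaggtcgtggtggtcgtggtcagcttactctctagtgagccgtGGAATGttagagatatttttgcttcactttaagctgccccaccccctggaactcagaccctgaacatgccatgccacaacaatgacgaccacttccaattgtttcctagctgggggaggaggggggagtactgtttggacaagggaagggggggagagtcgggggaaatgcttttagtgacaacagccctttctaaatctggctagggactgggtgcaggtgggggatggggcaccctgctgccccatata
Each window held 1 MCAT match on the reverse strand, from 206 to 201 bases before the RefSeq start in Myh6 and from 201 to 196 bases before it in Myh7. The Myh6 window held a TATAAA in addition, from 1 to 6 bases after that start. The RefSeq start of Myh7 is the end of its gene span given above, whereas that of Myh6 lies inside its span, so the distances are from starts of unlike kinds. Across the 32817 promoter windows of this length in RefSeq, 14.7% held a CATTCC on either strand and 13.6% a TATAAA, so these matches are common. A second annotated Myh7 start, whose window begins 77 bases further in, held no match.

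The libraries held 24237777 to 32118323 counts. Values below are counts per 1000000 counts of a library (CPM), scaled by the edgeR TMM method, unless another unit is named, and differences are log2 fold changes, TAC over sham, from edgeR's quasi-likelihood test with p-values adjusted by Benjamini-Hochberg over 12499 genes. With 2 libraries per group no exact permutation test of a single value can fall below p = 0.33. Over all genes tested 626 were called at an adjusted p under 0.05, which is 5.01% (2.58% with a higher and 2.43% with a lower level after TAC). The share under an unadjusted p of 0.05 was 27.5%, and 60.1% of genes had no overlap between the groups, with the TAC pair wholly above or wholly below the sham pair. Cardiomyocyte markers were abundant in every library, with a summed level over 10 genes of 44870 and 48290 CPM in sham and of 47700 and 47440 CPM in TAC. Of these 10 genes 7 had a positive log2 fold change and 3 a negative one. Called were 2, or 20.0% beside 5.01% of all genes, both higher. They were Tnnc1 at 0.52 and Casq2 at 0.39 (edgeR adjusted p = 0.0278 and 0.0455).

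Of the 9 genes 1 passed the test, Myh7, which was higher in TAC. The other 8 had adjusted p-values from 0.0643 to 0.865 in the edgeR test. An unadjusted p under 0.05 was reached by 6 of 9, and the groups did not overlap in 7 of 9, 5 of them higher and 2 lower after TAC. The exceptions to that last count were the atrial light chains Myl4 and Myl7. The median log2 fold change of the 9 was 0.36, beside −0.01 over all genes tested.

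**Figure D1:**
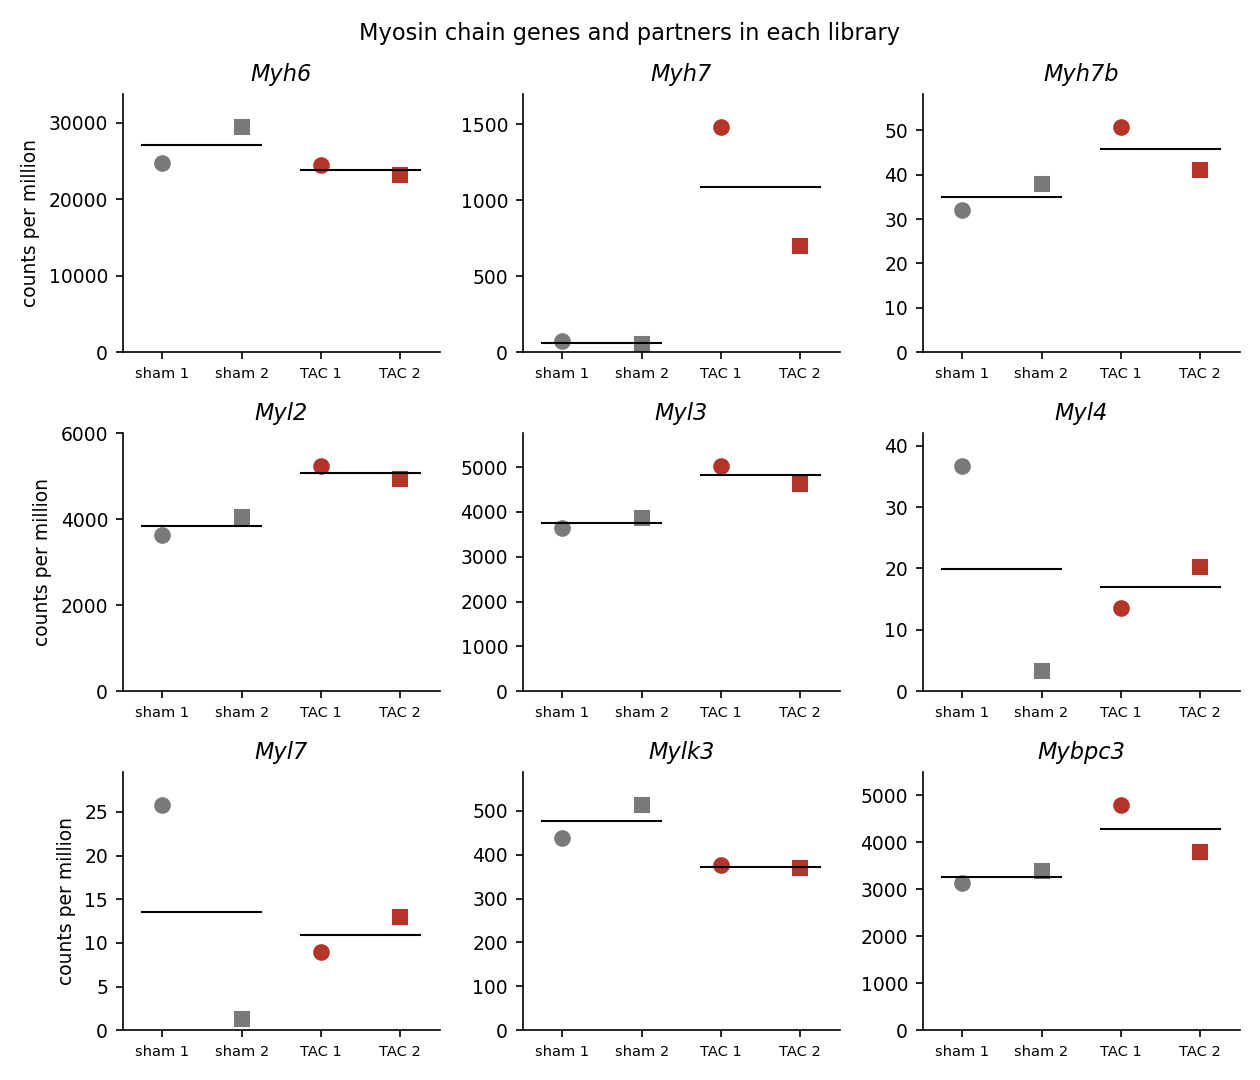
Level of each of the 9 genes in CPM (vertical axis, from 0, with its own scale per gene) in sham 1, sham 2, TAC 1 and TAC 2, with black lines at group means. Myh7 stands at 73.2 and 52.7 CPM in sham against 1481 and 698 CPM in TAC, while Myl4 and Myl7 are highest in sham 1 and lowest in sham 2.

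Levels of different genes were compared per length. By counts per kilobase of the principal annotated transcript, Myl2 stood above Myh6 in all 4 libraries, with 173370 against 127980 in sham 1, 175740 against 138570 in sham 2, 220320 against 111920 in TAC 1 and 182450 against 92784 in TAC 2. The deposited FPKM put Myh6 (7069 on the mean) above Myl2 (6184) in sham and below it in TAC (6300 against 7192). This order rests on the length behind the Myh6 FPKM, which the count, FPKM and total imply to be only 0.565 to 0.691 of the annotated 6113 bases and to differ between libraries. The other members followed in sham with mean FPKM of 4284 for Myl3, 837 for Mybpc3, 158 for Mylk3, 25.1 for Myl7, 24.2 for Myl4, 11.3 for Myh7 and 6.04 for Myh7b. Myl7 and Myl4 could not be placed beside Myh7 and Myh7b, since each ranged over more than the gap between them in the sham libraries. In TAC, Myh7 at 163 FPKM stood above Mylk3 at 105 FPKM, although Myh7 in TAC 2 (115 FPKM) was close to Mylk3 in the same library (112 FPKM).

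Among the heavy chains, Myh6 was the most abundant by a wide margin and Myh7 differed the most between groups. Myh6 stood at 24724 CPM in sham 1, 29438 CPM in sham 2, 24538 CPM in TAC 1 and 23196 CPM in TAC 2. The TAC libraries were the lower pair, but TAC 1 came within a small fraction of sham 1. Its log2 fold change was −0.18 ± 0.14 (SE, edgeR adjusted p = 0.419), with a 95% interval from −0.50 to 0.14, and it was −0.05 without sham 2.

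Myh7 stood at 73.2 CPM in sham 1, 52.7 CPM in sham 2, 1481 CPM in TAC 1 and 698 CPM in TAC 2. Both TAC libraries were far above both sham libraries, and TAC 1 was 2.12 times as high as TAC 2. TAC 1 also had the largest share of mitochondrial counts, 47.4% against 39.8% to 40.9% in the other libraries, and without it the log2 fold change of Myh7 was 3.47 (edgeR adjusted p = 7.68e-05). The rise was 17.3-fold, a log2 fold change of 4.11 ± 0.35 (SE, edgeR adjusted p = 0.00445) with a 95% interval from 3.29 to 4.94. By size it was the 6th largest rise of all 12499 genes tested, and its p ranked 12th. It passed the test in 10 of 10 other fits, with log2 fold changes between 3.47 and 4.56.

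The beta chain nevertheless remained the minor form. By counts, Myh7 made up 0.295% of Myh6 and Myh7 together in sham 1 (95% exact binomial interval, counting error only, 0.283% to 0.307%) and 0.179% in sham 2 (0.170% to 0.188%). In TAC 1 it made up 5.69% (5.64% to 5.75%) and in TAC 2 2.92% (2.88% to 2.96%). There were thus 338 Myh6 counts for each Myh7 count in sham 1 and 558 in sham 2, against 16.6 in TAC 1 and 33.2 in TAC 2. The intervals of no 2 libraries overlapped, so the libraries of each group differed from each other beyond counting error as well.

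From the deposited FPKM, the Myh7 share was 0.189% and 0.132% in the sham libraries and 3.48% and 1.68% in the TAC libraries (replicate 1 first). These shares are lower than those by counts because the implied length of Myh6 was 3455 to 4225 bases. For Myh7 the implied length was 0.932 to 1.00 of the annotated one. On the log2 scale the ratio of Myh7 to Myh6 was higher in TAC by 3.97 with FPKM and by 4.21 with counts (exact permutation p = 0.33, the smallest possible, for each).

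**Figure D2:**
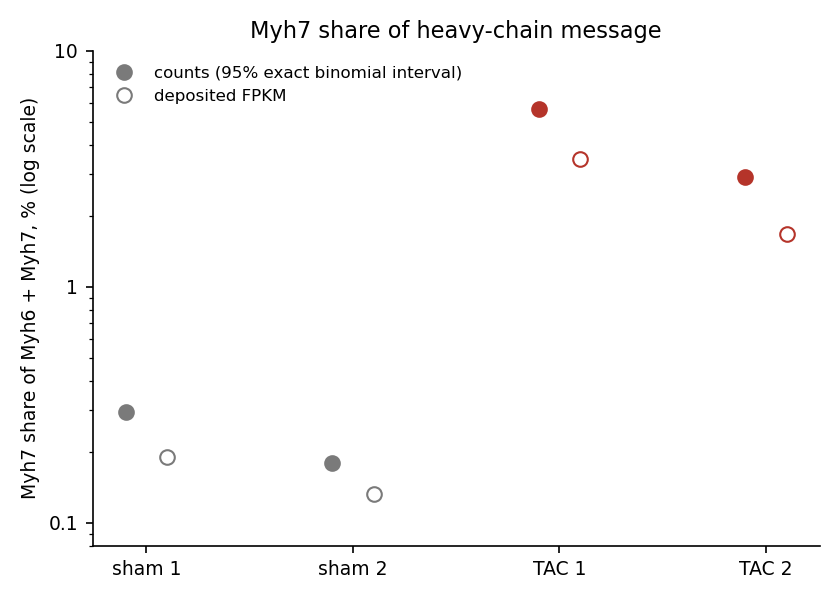
Myh7 as a percentage of Myh6 plus Myh7 (vertical axis, log scale) in each library, from counts (filled points, with exact 95% binomial intervals that are narrower than the points) and from the deposited FPKM (open points). In both units the sham libraries lie below 0.3% and the TAC libraries above 1.6%.

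The summed level of Myh6 and Myh7 was 24798 CPM in sham 1, 29491 CPM in sham 2, 26019 CPM in TAC 1 and 23894 CPM in TAC 2. The groups overlapped in this sum (exact permutation p = 0.667). No source used here says how fragments of the stretches common to both genes were divided, and the part of this division in the low Myh7 counts of the sham libraries was not tested.

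Myh7b, the third heavy chain gene (chr2:155611212-155634307), had a low level beside Myh6 in every library and beside Myh7 in TAC. In sham, Myh7 itself stood at only 73.2 and 52.7 CPM. Myh7b stood at 32.0 CPM in sham 1, 37.8 CPM in sham 2, 50.7 CPM in TAC 1 and 41.0 CPM in TAC 2. Both TAC libraries were above both sham libraries, and the gap between TAC 2 and sham 2 was smaller than that between the sham libraries. This gave a log2 fold change of 0.39 ± 0.13 (SE, edgeR adjusted p = 0.103). It was 0.23 without TAC 1, 0.20 with scaling by total counts and 0.54 without TAC 2 (edgeR adjusted p = 0.0239 for the last).

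The ventricular light chains were among the most abundant messages of these cells, and both were higher in each TAC library without passing the test. Myl2 (chr5:122100951-122113472) stood at 3627 CPM in sham 1, 4043 CPM in sham 2, 5231 CPM in TAC 1 and 4940 CPM in TAC 2. In log2 terms the fold change was 0.41 ± 0.10 (SE, edgeR adjusted p = 0.0643), with a 95% interval from 0.17 to 0.65. Myl3 (chr9:110741861-110769798) stood at 3639 CPM in sham 1, 3874 CPM in sham 2, 5018 CPM in TAC 1 and 4619 CPM in TAC 2. Its log2 fold change was 0.36 ± 0.10 (SE, edgeR adjusted p = 0.0793). DESeq2 called both, with adjusted p-values of 3e-04 for Myl2 and 0.0015 for Myl3. With scaling by total counts, the method the study names, the median of all genes moved to −0.20, and neither was called.

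The atrial light chains need the libraries to be looked at one by one. Myl4 (chr11:104550663-104595753) stood at 36.7 CPM in sham 1, 3.30 CPM in sham 2, 13.6 CPM in TAC 1 and 20.2 CPM in TAC 2. Sham 1 was 11.1 times as high as sham 2, and both TAC libraries lay between the sham libraries. The fold change on the log2 scale was −0.25 ± 0.80 (SE, edgeR adjusted p = 0.865). Myl7 (chr11:5896637-5898782, minus strand) stood at 25.8 CPM in sham 1, 1.32 CPM in sham 2, 8.93 CPM in TAC 1 and 12.9 CPM in TAC 2. Sham 1 was 19.5 times as high as sham 2, and the order of the 4 libraries was that of Myl4. On the log2 scale the fold change was −0.32 ± 0.91 (SE, edgeR adjusted p = 0.847).

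The direction of both genes rested on which sham library was kept. Without sham 1 the log2 fold change was 2.35 for Myl4 and 3.04 for Myl7 (edgeR adjusted p = 6.04e-06 and 3.88e-06). Without sham 2 it was −1.11 for Myl4 and −1.24 for Myl7 (edgeR adjusted p = 0.00385 and 0.00218). In these fits the lone sham library is assumed to vary like the other group. Ranked by the level in sham 1 over that in sham 2, a comparison made after the values were seen, Myl7 was first and Myl4 second of 8491 genes whose mean was 5 CPM or more and that had a count in sham 2. Below that level stood the atrial markers Mybphl at 24.0 times and Dkk3 at 12.5 times, so the 2 light chains were not alone. Above it the next gene was Hspa1a, a heat shock protein gene, at 3.53 times, and 99% of these genes were at or below 1.52 times.

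Other atrial markers were then set beside them. Sln, the atrial regulator sarcolipin, stood at 5.81 CPM in sham 1, 0.73 CPM in sham 2, 2.30 CPM in TAC 1 and 1.72 CPM in TAC 2. Dkk3, an atrial marker of the secreted Dickkopf family, stood at 10.9, 0.87, 3.48 and 4.46 CPM in the same order. Mybphl, an atrial relative of myosin-binding protein C, stood at 4.17, 0.17, 1.47 and 2.13 CPM, and Bmp10, an atrial growth factor, had 95, 9, 6 and 2 counts. All 4 were highest in sham 1, and in all but Bmp10, which had the fewest counts in TAC 2, sham 2 was the lowest library.

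The rest of the atrial list did not follow this order. Kcnj3 and Kcnj5, which encode subunits of the acetylcholine-gated potassium channel, differed little between the sham libraries (109 and 108 CPM for Kcnj3, 81.1 and 85.7 CPM for Kcnj5) and fell in TAC by 0.60 and 0.54 on the log2 scale (edgeR adjusted p = 0.00896 and 0.0173). Stard10 and Nr2f1 were 1.49 and 0.784 times as high in sham 1 as in sham 2. The list as a whole had 2 of 7 tested genes called, both lower, which is 28.6% beside 5.01% of all genes. It summed to 229 and 206 CPM in sham and to 141 and 154 CPM in TAC, most of it from Kcnj3 and Kcnj5. In such bulk libraries fewer cells of a type and less RNA per cell cannot be told apart, and whether the 2 sham hearts gave different amounts of atrial tissue was not tested.

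**Figure D3:**
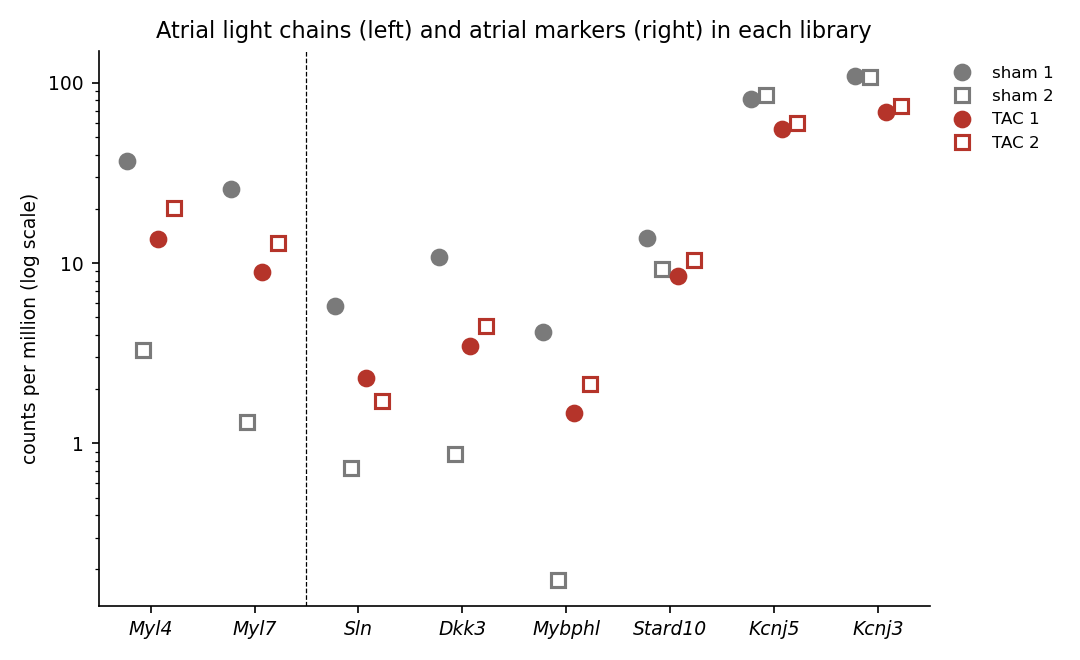
Level in CPM (vertical axis, log scale) of the atrial light chains Myl4 and Myl7 and of 6 atrial markers in each library, with sham in grey, TAC in red, replicate 1 filled and replicate 2 open. Sham 1 is the highest and sham 2 the lowest library for Myl4, Myl7, Sln, Dkk3 and Mybphl, whereas the sham libraries lie close together for Kcnj5 and Kcnj3.

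Against their ventricular partners the atrial chains were scarce in every library. From FPKM, Myl4 made up 1.04% of Myl3 and Myl4 together in sham 1 but 0.0885% in sham 2, with 0.282% and 0.453% in the TAC libraries. Myl7 made up 0.790% of Myl2 and Myl7 together in sham 1 but 0.0367% in sham 2, with 0.191% and 0.293% in the TAC libraries. The log2 ratios differed between the groups by 0.23 for Myl4 and 0.47 for Myl7 (exact permutation p = 1 for each). The signs of these differences are opposite to those of the fold changes above, and both lie within the spread between the sham libraries.

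The remaining pair of genes acts on the myosin filament. Mylk3, the cardiac light chain kinase (chr8:85324303-85386345, minus strand), stood at 439 CPM in sham 1, 513 CPM in sham 2, 376 CPM in TAC 1 and 370 CPM in TAC 2. The TAC libraries lay close together and below both sham libraries. The log2 fold change was −0.35 ± 0.09 (SE, edgeR adjusted p = 0.0695), a difference of −21.6%. It was not called without sham 2 (−0.23, edgeR adjusted p = 0.242), without TAC 1 (0.165), without TAC 2 (0.0986) or with the replicate block (0.104). It was called by DESeq2 (adjusted p = 0.0124), without the low-count filter (edgeR adjusted p = 0.0203) and without sham 1 (0.0216). Scaling by total counts or by totals without mitochondrial genes called it too (edgeR adjusted p = 0.0416 and 0.0298), at −0.54 and −0.45, but these scalings moved the median of all genes down to −0.20 and −0.11.

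Mybpc3 (chr2:91118144-91136516) stood at 3140 CPM in sham 1, 3386 CPM in sham 2, 4790 CPM in TAC 1 and 3792 CPM in TAC 2. Both TAC libraries were higher, with TAC 1 well above TAC 2. The log2 fold change was 0.40 ± 0.13 (SE, edgeR adjusted p = 0.106). It was 0.20 with scaling by total counts (edgeR adjusted p = 0.343), 0.22 without TAC 1 (0.344) and 0.56 without TAC 2 (0.0158), and DESeq2 gave an adjusted p of 0.00803. With totals that left out mitochondrial genes it was 0.29 (edgeR adjusted p = 0.149). The value thus moved with the TAC library left out and with the scaling, and the cause was not tested.

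**Figure D4:**
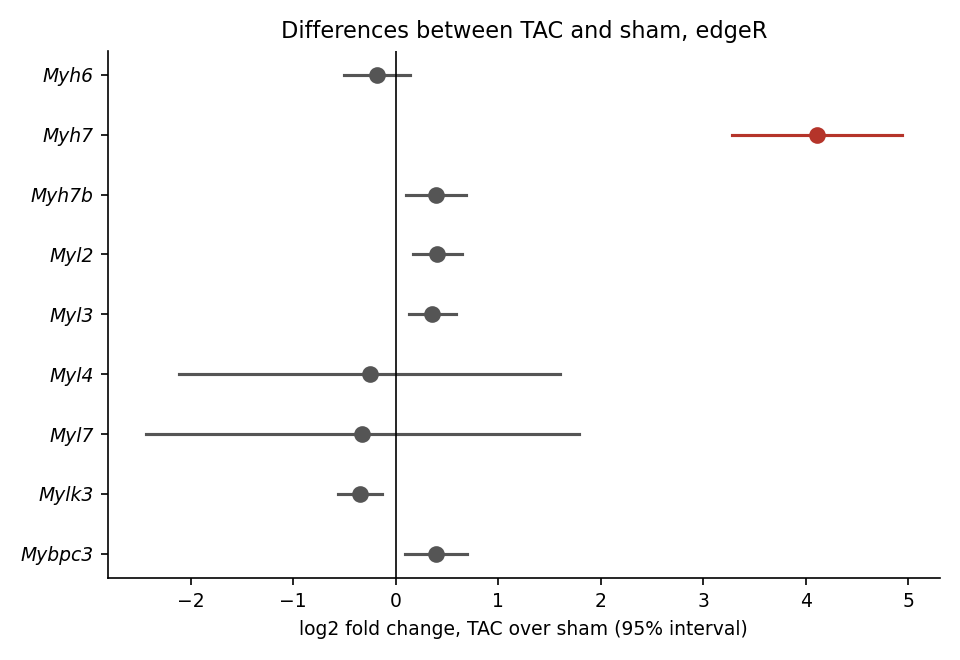
Log2 fold change, TAC over sham, of the 9 genes with 95% intervals from the edgeR fit (horizontal axis), with the gene that passed an adjusted p under 0.05 in red. Myh7 stands apart at 4.11, the intervals of Myl4 and Myl7 span more than that of any other member, and Myl2, Myl3, Myh7b and Mybpc3 lie between 0.36 and 0.41.

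Ratios between genes of the same library do not depend on how libraries are scaled to one another. They were chosen after the values were seen, and were taken from counts per kilobase of the principal annotated transcript and from the deposited FPKM, since the length behind the Myh6 FPKM differed between libraries. The ratio of Mylk3, the kinase, to Myl2, its substrate, was 0.0217 and 0.0227 in the sham libraries against 0.0129 and 0.0134 in the TAC libraries. The difference was −40.8% (−43.0% from FPKM), and the gap between the groups was large beside the gaps within them. The ratio of Myl2 to the heavy chains Myh6 and Myh7 was 1.35 and 1.27 in the sham libraries against 1.86 and 1.91 in the TAC libraries, which is 44.0% higher in TAC. From FPKM it was 0.871 and 0.876 against 1.14 and 1.09, only 27.6% higher. The ratio of Mybpc3 to the heavy chains was 0.186 and 0.169 in sham and 0.270 and 0.233 in TAC, 41.8% higher. From FPKM it was 0.120 and 0.117 against 0.165 and 0.133, or 25.7% higher. That of Myl3 to the heavy chains was 0.957 and 0.857 in sham and 1.26 and 1.26 in TAC, 39.1% higher. From FPKM it was 0.618 and 0.593 against 0.771 and 0.723, or 23.4% higher.

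In none of these 4 ratios did the groups overlap in either unit, but 3 of them share their denominator and all were chosen with the values known, so this is a description with no test. The ratio of Myl3 to Myl2 did not separate the groups, at 0.709 and 0.677 in sham and 0.678 and 0.661 in TAC. The ratio of Myl4 to Myl7 was 0.955 in sham 1 and 1.02 and 1.05 in the TAC libraries, and stood out at 1.68 in sham 2, where the counts behind it were only 95 and 38.

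**Figure D5:**
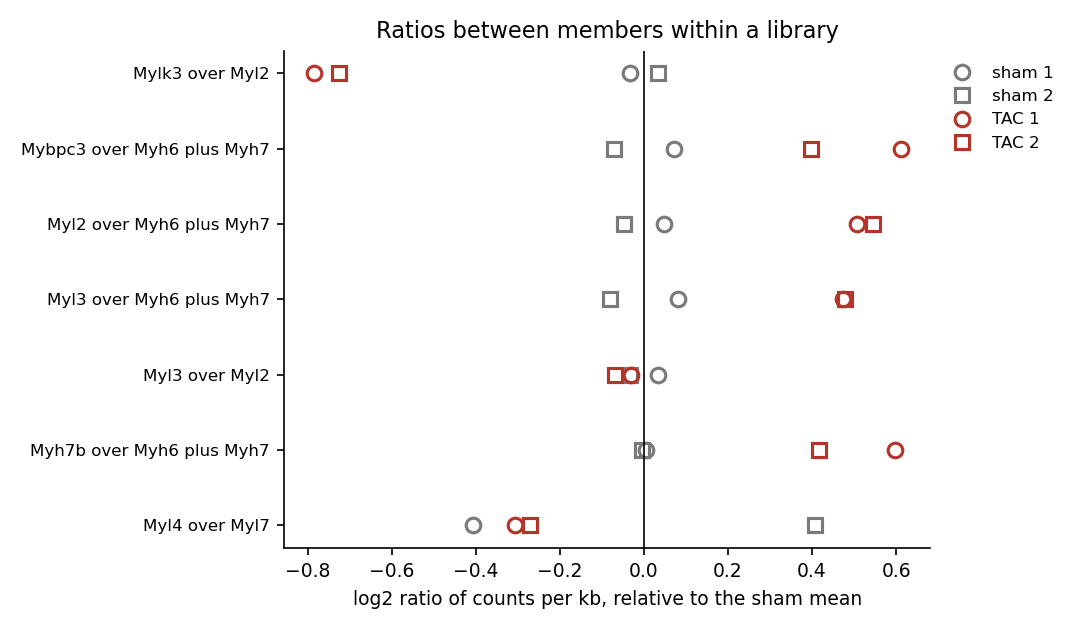
Ratios between the listed genes within each library on a log2 scale relative to the sham mean (horizontal axis), from counts per kilobase, with sham in grey and TAC in red. The TAC libraries are shifted down for Mylk3 over Myl2 and up for Myl2, Myl3, Mybpc3 and Myh7b over the heavy chains, while Myl3 over Myl2 and Myl4 over Myl7 overlap between the groups.

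A wider list of 37 other genes, of myosins and of proteins that bind, phosphorylate, dephosphorylate or fold them, was read in the same fit. Of these, 25 were abundant enough to be tested, and 4 were called higher and 1 lower, 20.0% beside the 5.01% of all genes. The list was chosen with earlier results of these data known, so this share is only a description. The median log2 fold change of the list was −0.01. Myl12a, a regulatory light chain of non-muscle myosin, stood at 346 and 365 CPM in sham and at 679 and 592 CPM in TAC, a log2 fold change of 0.84 ± 0.09 (SE, edgeR adjusted p = 0.00598). Mybpc2, the fast skeletal form of myosin-binding protein C, stood at 11.03 and 13.6 CPM in sham and at 39.8 and 28.7 CPM in TAC, a log2 fold change of 1.48 ± 0.17 (SE, edgeR adjusted p = 0.0078). Myl12a and Mybpc2 passed in each of the other 10 fits.

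The other 3 called genes of this list changed less and lost their call in some fits. Hsp90aa1, a chaperone used in myosin folding, rose by 0.46 on the log2 scale (edgeR adjusted p = 0.0243) and Myh10, a non-muscle heavy chain, by 0.42 (edgeR adjusted p = 0.0402). Under scaling by total counts these became 0.28 and 0.23 (edgeR adjusted p = 0.252 and 0.314), and with totals that left out mitochondrial genes neither was called (edgeR adjusted p = 0.0549 and 0.0681). Myh10 was also not called without sham 1, sham 2 or TAC 1 (edgeR adjusted p = 0.0985, 0.0888 and 0.118) or with a replicate block (0.0643). Mylk4, another kinase of the light chain kinase family, stood at 163 and 206 CPM in sham and at 115 and 130 CPM in TAC, or −0.59 on the log2 scale (edgeR adjusted p = 0.0396, and 0.11 without TAC 1). The 3 most abundant members that were not called were Smyd1, a methyltransferase of sarcomere assembly, Myo18b, an unconventional myosin, and Ppp1r12b, a subunit of myosin phosphatase, at 0.25, 0.24 and 0.04 on the log2 scale.

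The sarcomeric heavy chains of skeletal muscle were at or near 0. Myh1, Myh2 and Myh4 had 0 counts in every library, which allows up to 3 counts in each, and Myh3, Myh8 and Myh13 had 0 to 3. Non-muscle Myh9 and Myh14 had log2 fold changes of −0.45 and −0.28 (edgeR adjusted p = 0.0996 and 0.0865). Smooth muscle Myh11 had the lowest fold change of the list, −1.23 (edgeR adjusted p = 0.162), with 3.69 CPM in TAC 1 against 14.1 to 25.3 CPM in the other libraries. Myh11 also stands in the mural marker list and Mybphl in the atrial one. Markers of other cells had lower levels in TAC as well. The summed levels were 327 and 347 CPM in sham and 136 and 240 CPM in TAC for 6 mural genes (0 called), 431 and 347 against 201 and 284 CPM for 6 endothelial genes (2 lower), 225 and 161 against 91.6 and 126 CPM for 6 fibroblast genes (2 lower), and 67.8 and 34.1 against 17.2 and 30.7 CPM for 6 macrophage genes (0 called). The calls made up 33.3% of the endothelial and of the fibroblast genes, beside 5.01% of all genes. None of the mural, endothelial, fibroblast and macrophage lists was at 0. Their part in the levels of Myh9, Myh11, Myl12a and the other genes of non-muscle cells was not tested.

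Of 37 genes known to bind or act on the heavy chain genes, 34 were tested and 2 were called, 5.88% beside 5.01% of all genes. The median log2 fold change was 0.01. Srf, serum response factor, stood at 52.8 and 54.3 CPM in sham and at 76.5 and 70.0 CPM in TAC, or 0.45 on the log2 scale (edgeR adjusted p = 0.0278, and 0.213 with scaling by total counts). Tbx5, a T-box factor of heart development, stood at 18.1 and 17.9 CPM in sham and at 7.96 and 11.5 CPM in TAC, or −0.89 on the log2 scale (edgeR adjusted p = 0.0348). Without TAC 1 neither was called (edgeR adjusted p = 0.085 for Srf and 0.0613 for Tbx5). The most abundant regulators that were not called were Tead1, which binds the MCAT element, at 0.28 (edgeR adjusted p = 0.0642), and Mef2a and Mef2d, factors of the MEF2 family, at −0.14 and −0.05. Mhrt, the antisense transcript that lies between Myh6 and Myh7 and overlaps Myh7 on the other strand, was not analysed here. No source used here says whether counting used strand, so reads from it cannot be told apart from those of Myh7.

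The profile over the 4 libraries most like that of Myh7, by Euclidean distance between log2 CPM values centred on each gene's mean, was sought among 8483 other genes whose mean was 5 CPM or more. The nearest were Edn3, the ligand endothelin 3, at a distance of 1.63, Acta1, skeletal alpha-actin, at 1.66, and Nr4a3, an orphan nuclear receptor, at 1.82. Their log2 fold changes were 2.51, 2.65 and 2.36, all below the 4.11 of Myh7. Edn3 (3.51 and 3.20 CPM in sham) and Nr4a3 (2.50 and 2.15 CPM in sham) reached the cut-off only through their TAC levels. Fgf6, at 0.38 and 0.94 CPM in sham and 12.1 and 4.42 CPM in TAC, fell below it and was not compared. The order of neighbours thus depends on the cut-off. Acta1 stood at 322 and 542 CPM in sham and at 3154 and 2269 CPM in TAC, so that it shared the order of the TAC libraries with Myh7 but not that of the sham libraries. Around Myl2, the member with the next lowest adjusted p, Psmd8, a proteasome subunit, Thoc7, an mRNA export factor, and Riok2, a kinase of ribosome maturation, lay at distances of only 0.0143, 0.0187 and 0.0225. Over 4 libraries such distances are a description of these samples.

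The promoter windows of the light chain genes and partners held other matches. Those of Myl3 and Myl7 each held a CArG site, which 1.63% of all windows hold, and that of Mybpc3 held a MEF2 site, which 0.558% hold. The windows of the atrial light chains, whose levels had the same order over the libraries, are shown because they differed in these letters.
Myl7, chr11:5898733-5899032, minus strand: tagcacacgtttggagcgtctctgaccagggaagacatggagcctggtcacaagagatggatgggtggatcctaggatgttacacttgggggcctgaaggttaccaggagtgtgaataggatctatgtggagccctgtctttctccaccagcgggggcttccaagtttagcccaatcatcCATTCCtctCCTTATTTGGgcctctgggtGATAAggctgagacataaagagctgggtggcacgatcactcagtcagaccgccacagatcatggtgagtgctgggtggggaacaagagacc
Myl4, chr11:104550413-104550712, plus strand: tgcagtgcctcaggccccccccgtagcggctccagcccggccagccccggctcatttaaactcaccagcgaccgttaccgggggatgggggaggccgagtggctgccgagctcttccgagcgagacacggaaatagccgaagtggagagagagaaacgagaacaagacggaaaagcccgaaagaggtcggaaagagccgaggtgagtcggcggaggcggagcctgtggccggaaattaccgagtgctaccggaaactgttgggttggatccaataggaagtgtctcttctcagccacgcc
The Myl7 window held, in this order toward the start, CATTCC, CArG and GATAA within 70 bases of it. The Myl4 window held none of the motifs searched. GATAA is found in 25.4% of all windows and AGGTCA in 16.3%, the latter in the windows of Myh7b and of 1 of 2 Myl2 starts. Both Myl2 windows lie upstream of the gene span given above and not at its first base. The Myl3 window, chr9:110763428-110763727, lies wholly inside the Myl3 span, whereas that of Myl7 holds the end of the Myl7 span. The windows of Myl3 and Myl7 are thus from starts of unlike kinds.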

How the data were processed

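Cardiomyocytes of 2 sham and 2 TAC mice were sequenced, with groups and replicate numbers read from the sample titles. Per gene, the deposited files of the authors give an expected count (estimated, not always whole) and an FPKM. The submitters' processing notes name Bowtie2 2.2.8, StringTie 1.3.1 and mm10, without saying what each was used for, and neither the counting program nor strand use is named in the sources used here. The 9 genes and all lists were chosen with earlier results of these data known.

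Expected counts were rounded and analysed with edgeR 4.0.16 (R 4.3.3) by filterByExpr, TMM, glmQLFit and glmQLFTest without a block, on all genes, with Benjamini-Hochberg adjustment and calls at an adjusted p under 0.05. The standard error was the log2 fold change over the square root of F. The script was tested on simulated data. Replicates came from separate mice and differed beyond sampling noise (chi-square per degree of freedom 9.57 for sham, 32.2 for TAC). Alternatives were total-count scaling, totals without mitochondrial genes, DESeq2 1.42.0, no filter, leaving out each library, a replicate block, other thresholds and deposited FPKM. Mitochondrial genes took 47.42% of counts in TAC 1 and 39.84% to 40.85% in the other libraries.

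Shares were taken from FPKM and from counts, with intervals on the counts, and exact permutation tests were two-sided. Lengths were those of the APPRIS principal transcript (GENCODE M21, lowest-numbered where several). Named from the lists were all called genes and otherwise the 3 most abundant, plus the 3 nearest profiles to Myh7 and to the member with the next lowest p. All 9 members matched 12 promoter windows. No protein sequences are shown.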

Additional observations from a re-analysis of the deposited data

How the results depend on the processing

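Of the 9 members, Myh7 was called in each of the 10 other fits, whereas Myh6 was called in none of them. Calls over all genes moved with the fit as well, from 626 of 12499 to 528 with total-count scaling, 637 with totals without mitochondrial genes, 883 of 11150 with DESeq2, 1676 of 16015 without the low-count filter, 301 of 12884 without TAC 1, 1336 of 12914 without TAC 2, 2131 with crossed numbers and 1817 at an adjusted p under 0.1. The number of members called was 1 in the edgeR fit, 2 with total-count scaling and 2 with totals that left out mitochondrial genes (Myh7 and Mylk3 in both), 5 with DESeq2 (Myh7, Myl2, Myl3, Mylk3 and Mybpc3), 6 without the low-count filter (these and Myh7b), and 4 at an adjusted p under 0.1. Leaving out each library gave 1 to 5 members, with 5 without TAC replicate 2. Myl4 and Myl7 turned to 2.353 and 3.042 without sham 1 and were −1.114 and −1.236 without sham 2, and the replicate block gave 0.3708 and 0.4619 for them, neither called.

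Other genes of myosins and their partners called numbered 5, against 3 with total-count scaling, 10 without the filter, 3 without TAC 1 and 11 without TAC 2. Regulators called numbered 2, against 4 with totals without mitochondrial genes, 5 without the filter and 0 without TAC 1. The replicate block called 1 member, with 566 of all 12499 genes called in that fit. Same-numbered libraries deviated in opposite directions (r = −0.242 across genes, which are not independent), so the numbers were not taken as pairs. The study speaks of pairs of sham and TAC mice, but no source used here says that a shared number marks a pair. Crossing the numbers, a choice made after seeing the data, called 6 members, 15 of the other myosin and partner genes and 6 regulators. Without a library, the log2 ratio difference of the Myh7 share ranged from 3.43 to 4.51, of the Myl4 share from −1.55 to 2.02 and of the Myl7 share from −1.75 to 2.69. The lowest count of Myl2 and Myl3 in any library was 111477 (Myl3 in sham 2), whereas Myl7 rested on 38 counts in sham 2. The effect of depth was not tested. The causes of these shifts were not tested.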
